A study of Arabidopsis thaliana with 31 samples.

Results

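The poly(A) ends described here are positions inside the protein-coding sequence (CDS) of Arabidopsis thaliana genes at which a read, once its poly(A) tail had been removed, ended. They were taken from the deposited poly(A)-seq alignments. Every read on the plus strand of a transcript was placed on the TAIR10.1 genome through the exons of that transcript, and its last base before the tail was taken as the 3′ end. An end was counted when it lay in annotated CDS and in no annotated 3′ UTR, and in no stretch of 300 nt that follows a gene of that strand. The rule gave 1362 distinct ends with 5095 reads in 980 genes. These were 0.730% of all 186590 distinct ends (95% exact Clopper-Pearson interval, 0.692 to 0.770%) and 0.194% of all 2628718 placed reads (0.189 to 0.199%).

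The series holds 31 samples on the poly(A)-binding proteins (PABs) of this plant, and 1 of them is used here. It is the poly(A)-seq library of wild-type Col, made from whole 2-week-old seedlings with no mutant allele and no treatment beyond the growth conditions. Poly(A)-seq ligates an adaptor to the 3′-terminus of the tail, so the tail and the bases before it are read from 1 fragment. There was 1 library and no replicate, so no test between conditions was made, and all intervals cover counting error only. Intervals over reads take the reads as independent. Duplicate removal is not stated and many reads share a start, so these intervals may be too narrow.

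Polyadenylation is the cleavage of a nascent transcript followed by the addition of a tail of adenosines. Most plant tails follow the stop codon, in the 3′ UTR, downstream of an A-rich element (AAUAAA is its best-known form, although plants use it loosely) and close to U-rich sequence. A transcript that ends within the CDS has no in-frame stop codon unless the tail itself supplies the last bases of one, since UAA and UGA end in A. Such nonstop mRNAs are known to be recognized and degraded when ribosomes run into the tail.

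The following sequences show what the ends look like. Each runs 5′ to 3′ on the strand of the gene, in TAIR10.1, and shows 20 bases up to the end in lower case and the 10 genomic bases after it in capitals. The first are the most used ends, shown because they hold the largest read counts.
AT3G10720, chromosome 3, position 3354648, minus strand: tctatggtggtttgcttagcAAAGAATGAA
TAT7, chromosome 5, position 21912588, plus strand: ccaagactcaatatccaaccATATAGTTGA
ADG1, chromosome 5, position 19572494, plus strand: gagagactgatggatatttcATAAAGAGCG
AT3G47836, chromosome 3, position 17650355, minus strand: tttcgattctaggagcaattAAATAAATGA
HAP6, chromosome 4, position 11283577, plus strand: tctcaacttgcatcagcatcAAACAAGTTG
The next show ends inside the annotated stop codon, where the adenosines of a tail give the same codon as the genome.
LHCB3, chromosome 5, position 22039381, plus strand: taagtttgcacctggagcttAAATTTTCAA
LHCB6, chromosome 1, position 5446686, minus strand: ctcggtgctcttggtttgtgAGAAAACGGC
UCP5, chromosome 2, position 9563532, minus strand: ttcaaggactatgacttttgAAAAAAACAA
The next have the longest runs of genomic adenine after the end.
AT4G24920, chromosome 4, position 12820692, minus strand: ataataaaaacgaaacacacAAAAAAAAAA
AT3G16660, chromosome 3, position 5676866, plus strand: gcaacacaaacacacacaccAAAAAAAAAA
The last pair are ends at the same CDS position of genes with the same product name.
AT1G66500, chromosome 1, position 24812243, minus strand: acaattgcggtgttgatgtgATTGCTTCTA
AT5G43620, chromosome 5, position 17522922, plus strand: acaattacggtgttgatgtgATTGCTTCTA

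Most ends were thinly covered. Of the 1362 ends, 824 (60.5%) had 1 read, against 35.9% of the 182630 ends in 3′ UTRs or downstream. An end with reads that began at 2 or more different bases rests on separate fragments, and 160 CDS ends (11.7%) met this, against 44.8% of ends in 3′ UTRs or downstream. Those 160 ends lay in 143 genes and held 3198 reads, 62.8% of all reads at CDS ends. When ends within 24 nt of each other were joined, 1166 sites remained. The 10 most used ends held 1652 reads (32.4%).

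Reads at CDS ends were shorter than the rest, with a median of 47 nt against 59 nt for all placed reads. Exon junctions were crossed by 485 of the 5095 reads (9.52%), against 0.0469% of all placed reads. A read counted when its alignment passed a junction of the named transcript by any length, and the overhang was not checked. The sets differ in place, since 2610052 of 2628718 placed reads ended in 3′ UTRs or downstream. No comparison was made with other reads over CDS. A mapping quality of at least 10, a score of how well an alignment beats its alternatives, was reached by 47.8% of reads at CDS ends and 58.7% of all placed reads. Because the alignments name transcripts, a read shared by several transcripts of a gene can have a low score without having a second place in the genome.

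Along the CDS the ends were concentrated in its last 10%. This interval held 485 ends (35.6%) and 3398 reads (66.7%), against 77 to 151 ends in each of the other intervals of 10%. The first 10% held 108 ends and 203 reads. The median end lay at 75.5% of the CDS, 269.5 nt before its last base. Among the 160 ends with 2 or more read starts, the median lay at 94.1% of the CDS, 59.5 nt before its last base, and 95 of them were in the last 10%.

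**Figure D1:**
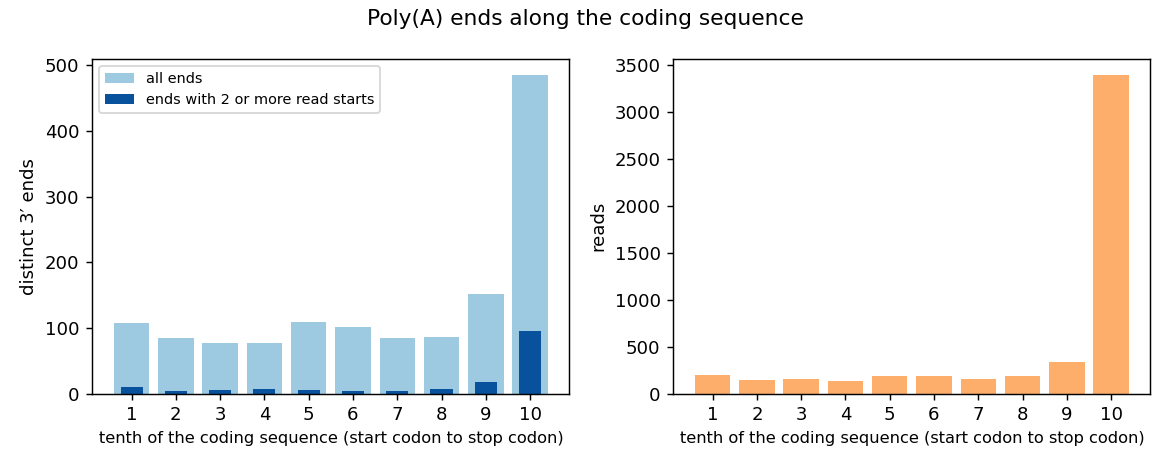
Distinct 3′ ends (left) and reads (right) in each interval of 10% of the CDS, from the start codon to the stop codon. Dark bars on the left are ends with 2 or more read starts. The last 10% held 485 ends, 95 of them with 2 or more starts, and 3398 reads.

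Within 100 nt of the last base of the CDS lay 503 ends with 3507 reads, 68.8% of the reads in all. Without the single most used end the share of reads was 65.2%. A narrow zone of 3 to 10 nt before the last base had 67 ends and 1312 reads, 25.8% of the reads. The end of AT3G10720 gave 531 of these, and without it the zone held 781 of 4564 reads (17.1%). Farther than 300 nt from it were 663 ends in 469 genes with 1110 reads, and only 37 of these ends had 2 or more read starts.

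By exon, 531 ends (39.0%) and 3346 reads lay in the last exon of a transcript with several, and 332 ends (24.4%) in transcripts with a single exon. Inner exons held 390 ends (28.6%) and first exons 109 (8.00%). The ends in inner exons had 774 reads, and 20 of them had 2 or more starts. Only 21 ends lay in the last 5 nt of an exon other than the last one. For 73 ends (5.36%) the position was intronic in another transcript of the same gene, so that the CDS there belongs to some of its transcripts.

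The base after the end was A in the genome at 957 ends (70.3%, 67.8 to 72.7%). This compares with 63.0% of ends in 3′ UTRs or downstream and 27.5% of all 23316249 bases of annotated CDS other than A. The tail was removed from each read together with any genomic A next to it, so an end followed by A may lie farther downstream by the length of that run. A base before a run of A thus gathers the ends within the run. The count over CDS bases takes each base once and does not allow for this. At 54 ends with 307 reads, all in the annotated stop codon, the run went past the last base of the CDS, and at 90 ends with 462 reads it reached or passed that base. For the same reason the last base is rarely A. It was U at 44.0% of CDS ends, C at 32.1%, G at 21.7% and A at 2.20%. In 3′ UTRs or downstream it was U at 51.3%, C at 29.4%, G at 12.4% and A at 6.85%.

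An A-rich stretch, defined as 6 A in a row or 7 A among the next 10 bases, followed 122 CDS ends (8.96%, 7.49 to 10.6%). It followed 5.00% of ends in 3′ UTRs or downstream and 1.09% of non-A CDS bases. The share at CDS ends was 8.21 times that over the CDS. The removal of genomic A with the tail raises the shares at ends but not that over CDS bases. The ratio was not corrected for this, so it does not measure a preference for such places. Counted over reads, the share was 26.1% at CDS ends and 6.07% in 3′ UTRs or downstream. The end of AT3G10720 gave part of this, since without it the share at CDS ends was 17.5%. A run of at least 5 A, the shortest run that the study took as the start of a tail, followed 33 CDS ends (2.42%, 1.67 to 3.39%), 1.86% of ends in 3′ UTRs or downstream and 0.192% of CDS bases. Such a run can be read as a tail although it is encoded in the genome, and whether it was at these ends was not tested.

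**Figure D2:**
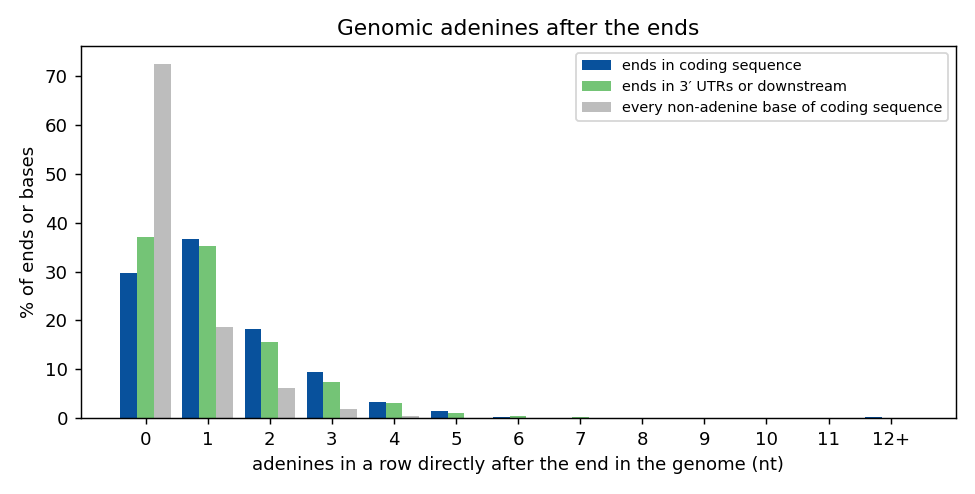
Share of ends by the number of adenines that directly follow them in the genome, for ends in CDS, ends in 3′ UTRs or downstream, and every non-A base of CDS. No adenine followed 29.7% of CDS ends, 37.0% of ends in 3′ UTRs or downstream and 72.5% of CDS bases. The CDS bases were not corrected for the removal of genomic A with the tail.

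Long runs were few. At least 8 A followed 6 ends, and 5 of these had 1 read. AT4G24920, which encodes a secE/sec61-gamma protein transport protein, had 4 reads from 2 starts before 18 A, at 44.9% of its CDS. AT3G16660 had 1 read before 16 A, and AT1G35215 had 1 read before 15 A. The ends of AT4G24920 and AT3G16660 are CDS in 1 of the 2 transcripts of each gene. In AT5G22270 the run had 11 A. MGD1, which makes the galactolipid of chloroplast membranes, and MED19A, a subunit of the Mediator complex, had 1 read each before 8 A.

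Upstream of the ends, AATAAA began 10 to 30 nt before 23 CDS ends (1.69%, 1.07 to 2.52%), against 6.26% of ends in 3′ UTRs or downstream and 0.473% of CDS bases. The motif was thus 0.270 times as frequent as in 3′ UTRs and 3.57 times as frequent as in the CDS at large. None of the 15 most used ends had it. The 20 nt before the end were 33.5% U at CDS ends, 41.5% U in 3′ UTRs or downstream and 28.6% U at CDS bases.

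Upstream of the ends, adenine was highest 16 nt before CDS ends, at 34.7%, and 19 nt before ends in 3′ UTRs or downstream, at 36.8%. Before CDS ends it was nearly as high at 17 nt (34.5%) and 20 nt (34.2%), so the place of this peak is not resolved. At 6 nt before the end, uracil stood at 39.4% in CDS and 49.7% in 3′ UTRs or downstream. At the last base itself it stood at 44.0% in CDS and 51.3% in 3′ UTRs or downstream.

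**Figure D3:**
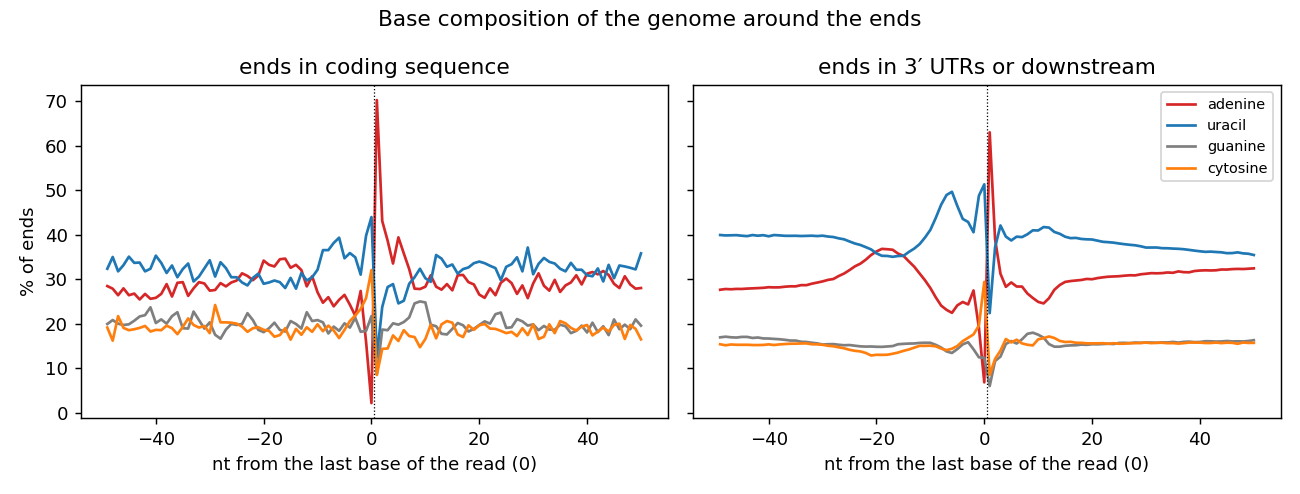
Base composition of the genome from 49 nt before to 50 nt after the ends, for CDS ends (left) and ends in 3′ UTRs or downstream (right), where 0 is the last base of the read. Adenine reached 70.3% at the base after CDS ends and 63.0% after ends in 3′ UTRs or downstream.

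The tail completed a stop codon at 281 CDS ends (20.6%, 18.5 to 22.9%) with 853 reads. Of these, 105 ends in 103 genes, with 493 reads, lay in the annotated stop codon itself, 73 of them after its U and 30 after UG. The genomic A after 90 of these 105 ends reached or passed the last base of the CDS, so their tails may begin after it. Upstream of the stop codon the tail completed one at 176 of 1257 ends (14.0%, 12.1 to 16.0%), against 11.1% of all non-A bases of the longest CDS of each gene. Where the next base was A, this was 88 of 854 ends (10.3%, 8.35 to 12.5%), against 5.22% of the CDS bases followed by A. The shares over CDS bases include the annotated stop codons, which these shares of ends leave out. At the other 1081 ends (79.4%), with 4242 reads, the tail gave no stop codon in frame. By codon base, ends fell on base 1 at 37.7% (35.2 to 40.4%), on base 2 at 29.4% and on base 3 at 32.8%. The non-A CDS bases gave 33.1%, 32.0% and 34.9%. These shares of ends include the 105 ends in the annotated stop codon, 73 of which lie on base 1. Whether base 1 is in excess upstream of the stop codon was not tested.

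The 15 most used ends, with at most 2 per gene and 2 or more read starts each, had 49 to 531 reads from 10 to 33 starts and held 37.8% of the reads. All 15 lay in the last exon, within 100 nt of the last base of the CDS, and were followed by A, and 10 ended in C. In 9 of them the end held at least 50% of the reads of its gene. No read reached a mapping quality of 10 at 7 of the 15 ends, those of AT3G10720, AT3G47836, HAP6, WEB1, SNC1, AT1G28660 and AT4G35360, which all lie in genes with several annotated transcripts. At AT2G01870 9 of 72 reads reached it, and at ARAB-1 18 of 59 did, in genes with 1 transcript.

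AT3G10720, of the plant invertase and pectin methylesterase inhibitor family, had 531 reads from 27 starts at 1 end, 9 nt before the last base of the CDS. This was 85.8% of the gene's 619 reads (82.8 to 88.4%, with each read taken as independent). No read there reached a mapping quality of 10, although the read sequences occurred once in the genome, and the gene has 2 annotated transcripts. TAT7, a tyrosine transaminase family member that acts in the synthesis of tocopherols, had 230 of its 296 reads (77.7%, 72.5 to 82.3%) at an end 6 nt before the last base, from 33 starts and all at a mapping quality of at least 10. ADG1, the small subunit of ADP-glucose pyrophosphorylase in starch synthesis, had 213 of 447 reads (47.7%, 42.9 to 52.4%) at an end 63 nt before the last base. In AT3G10720 and TAT7 the end held most of the gene's reads, and in ADG1 the interval included 50%.

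AT3G47836, which encodes a short uncharacterized protein, had 169 of 284 reads (59.5%) 6 nt before the last base of a 195-nt CDS. HAP6, a ribophorin II family protein of the oligosaccharyltransferase, had 132 of 251 reads (52.6%) 22 nt before it. FAD5, a plastid fatty acid desaturase, had 104 of 627 reads (16.6%) 32 nt before it. WEB1, which acts in chloroplast movement under blue light, had 81 of 121 reads (66.9%) 11 nt before it. In IAA16, a repressor of auxin responses, the end held 49 of 418 reads (11.7%) and lay 15 nt before the last base. The end held 72 of 109 reads in AT2G01870, 61 of 91 in AT1G12330, a cyclin-dependent kinase-like protein, and 53 of 134 in AT4G35360, a pantothenate kinase. The share of the gene's reads therefore ranged widely among these ends.

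**Figure D4:**
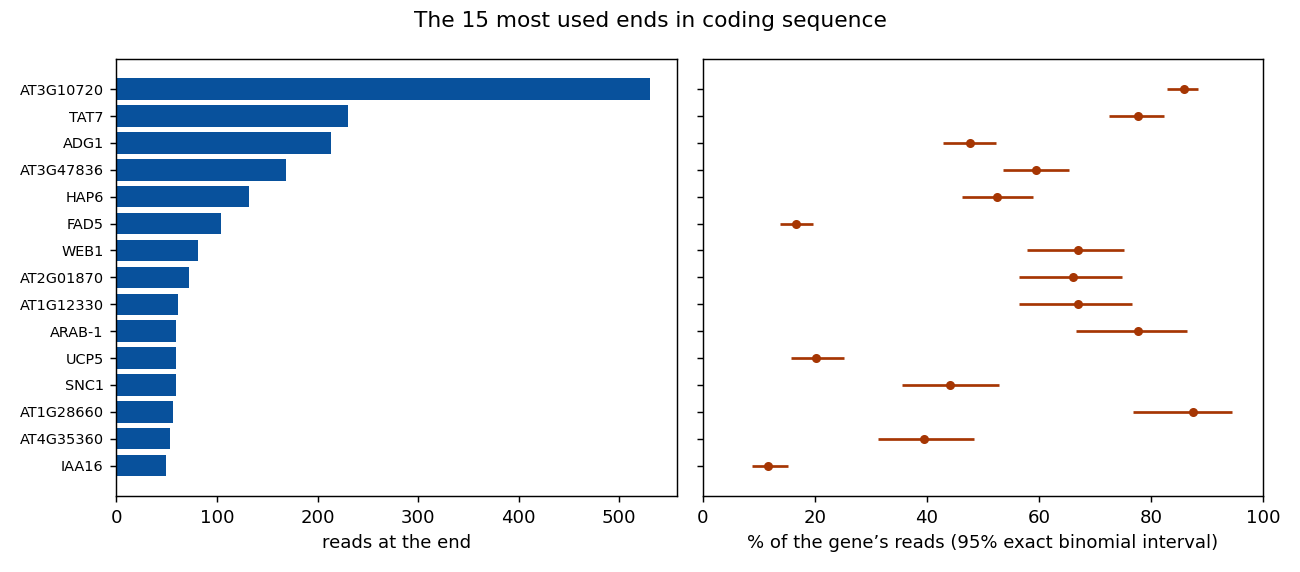
Reads at the 15 most used CDS ends (left) and the share of their gene's reads that each holds, with its 95% exact binomial interval (right). AT3G10720 had the most reads, 531, and the share ran from 11.7% in IAA16 to 87.5% in AT1G28660. The intervals take the reads as independent.

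Sequence copies limited some of the most used ends. ARAB-1 (AT1G28670) and its neighbour AT1G28660, both GDSL-like lipases, ended at the same place, 6 nt before the last base, with 59 and 56 reads. Their read sequences occur up to 2 times in the genome, so the reads of the pair may not be separable. At SNC1, a TIR-NBS-LRR resistance protein, 59 reads lay 50 nt before the last base, and a read sequence there occurs 3 times in the genome.

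Ends within the stop codon included genes of photosynthesis. LHCB3, an antenna protein of photosystem II, had 47 reads from 14 starts after the U of its stop codon, of 17797 reads in all (0.264%). LHCB6, another antenna protein, had 43 reads from 21 starts after UG, of 9031 (0.476%). UCP5, a mitochondrial carrier, had 59 of 292 reads (20.2%) after UG, followed by 7 A in the genome. CUL3, a scaffold of ubiquitin ligases, had 32 reads from 4 starts after U.

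Per gene, the ends were mostly single. Of the 18062 protein-coding genes with a read, 5.42% held a CDS end, 787 genes having 1 end, 119 having 2 and 73 having 3 or more. Genes with a CDS end had a median of 25 reads, against 21 for all genes with a read. In the 695 genes with a CDS end and at least 10 reads, CDS ends held a median of 4.17% of the reads (lower quartile 1.27%), in 177 genes they held at least 10%, and in 39 genes they held at least 50%.

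The gene with the most ends was AT2G07698, annotated as an alpha subunit of the F1 ATPase, with 24 ends spread from 10.6 to 97.6% of its CDS and 36 of its 40 reads. It lies in a stretch of chromosome 2 that holds a copy of mitochondrial DNA. In that stretch, 107 ends in 37 genes, with 173 reads, had a read sequence that also occurs unchanged in the mitochondrial genome, so nuclear and mitochondrial transcripts cannot be told apart there. AT2G07777 with 9 ends and AT2G07815 with 8 ends lie there too. The next base was A at 44.9% of these 107 ends and at 72.4% of the other 1255, and none of the 107 had AATAAA upstream.

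AT1G55675, an uncharacterized gene, had 12 ends between 1.22 and 42.8% of its CDS, with 31 of its 159 reads. It lies on the same strand just upstream of PSAG, a photosystem I subunit gene with 39788 reads and no CDS end.

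AT5G43620 and AT1G66500, both annotated as pre-mRNA cleavage complex II proteins, had 11 and 10 ends, all between 18.7 and 30.4% of their single-exon CDS. They held 15 of 21 reads (71.4%) in AT5G43620 and 27 of 43 reads (62.8%) in AT1G66500, every one with a mapping quality of at least 10. Summed over the ends, these had 14 and 12 read starts. In AT1G66500, 12 reads lay at 1 end and shared 1 start. At 4 CDS positions, 264, 270, 279 and 300, both genes had an end, with 1 to 3 reads each. The 60 nt before these positions differ between the genes at 2 to 5 bases. This pair was singled out after its values were seen.

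Among the 10 genes in which CDS ends held the largest share of the reads, several had few reads or repeated sequence. SHP1, a MADS-box factor of fruit opening, had all 11 reads at 4 CDS ends, but a read sequence there occurs 119 times in the genome. These positions are intronic in 4 of its 5 transcripts. AT4G20690 had all 21 reads at 5 ends, with a sequence of 11 copies. AT5G28380, a tetratricopeptide repeat protein, had all 14 reads at 2 ends, 13 of them at 9.38% of its CDS. Both ends are CDS in 1 of its 2 transcripts, and a read sequence at each occurs 2 times in the genome. AT3G26920, an FBD and leucine-rich repeat protein, had 10 of 11 reads at 5 ends. AT1G80950, an acyltransferase family member, had 38 of 44 reads (86.4%) at 1 end from 12 starts, 14 nt before the last base. That position is intronic in 1 of its 2 transcripts.

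Over all genes with a read, 5.42% held a CDS end, and CDS ends held 0.193% of the reads. Of the genes for PABs, which bind the tail, PAB4 alone among 4 with reads held a CDS end, with 7 of 90 reads (7.78%) from 2 starts, 60 nt before the last base of the CDS. None of 17 listed cleavage and polyadenylation factor genes with reads held one, and none of 41 histone genes did. The intervals reach 19.5% and 8.60% and include the share over all genes. The list of factors did not include AT1G66500 and AT5G43620, the cleavage complex II genes described above, which did hold CDS ends. Among the genes that the name pattern for ribosomal proteins matched, 8 of 281 (2.85%, 1.24 to 5.53%) held an end, and RPL21C had 13 of 2268 reads. The pattern missed some such names, among them AT3G06700 of the ribosomal L29e family, which had 31 of 2572 reads from 9 starts at 1 end. Among photosynthesis genes 16 of 47 (34.0%, 20.9 to 49.3%) did, with 143 of 606550 reads (0.0236%), so that their share of genes was above that over all genes and their share of reads below it. Their median gene had 9031 reads, against 21 for all genes with a read, and 25 of their 26 ends lay within 100 nt of the last base. PSBY had 12 of 1507 reads at CDS ends and PSAE-1 had 6 of 39109.

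Genes whose product names a disease resistance protein, a group chosen after the ends were seen, held an end in 44 of 122 with a read (36.1%, 27.6 to 45.3%), against 5.42% of all genes. CDS ends held 228 of their 2613 reads (8.73%), against 0.193% over all genes. SNC1 alone gave 62 of the 228, and 59 of these lay at 1 end where a read sequence occurs 3 times in the genome. Their median gene had 9 reads. The 103 ends had a median position of 58.3% of the CDS, and 8 lay within 100 nt of its last base. Ends with 2 or more starts numbered 11, and 22 ends had a read sequence with 2 or more copies. AT1G31540 had 8 ends with 12 of its 16 reads, AT5G40910 had 7 with 18 of 47, AT5G38850 had 5 with 12 of 13, AT1G63860 had 5 with 9 of 10, AT3G44670 had 4 with 12 of 14, and AT4G19520 had 8 with 9 of 18. Reads at the 22 ends with copies may be split among them, and this was not tested. At the ends of AT1G31540, AT5G38850, AT1G63860, AT3G44670 and AT4G19520 the read sequences occurred 1 time in the genome. Near copies were not counted. At the CDS ends of AT1G31540, AT1G63860, AT3G44670, AT4G19520 and AT5G40910, no read reached a mapping quality of 10. Each of these genes has several annotated transcripts. At AT5G38850, a gene with 1 transcript, every read at the CDS ends reached it.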

How the data were processed

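Poly(A)-seq reads of 1 Col library were used; the other samples were not analysed here. The authors kept reads with a 3′-adaptor, removed random bases, adaptor and tail (a stretch of A with interspersed G allowed), and aligned the rest with Bowtie2. The deposited alignments give a transcript, its start and end positions, and a mapping quality, a score from 0 to 42. Duplicate removal is not stated. The submitters' processing notes name TAIR10, and the build of the transcripts is not given in the sources used here. RNA was cut with RNase T1, and 20.5% of reads at CDS ends followed a genomic G, as did 19.7% of all placed reads.

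Of 2786281 reads, 125222 minus reads were left out, as were 19101 plus reads on 401 transcripts absent from the annotation and 13240 on 126 transcripts with a read past the annotated end. The remaining 2628718 reads, 16 to 137 nt long, were placed on TAIR10.1 (RefSeq). Ends were assigned to the longest CDS that held them. Placement and base features were tested on simulated and drawn positions. Shares have 95% Clopper-Pearson intervals, and no test was made. Ends were also counted at mapping quality of at least 10, with 2 or more starts, once per sequence, at other extensions and motif windows, and by reads. Python, numpy, scipy, pandas and matplotlib were used.

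The genes named were the 15 most used ends with 2 or more starts (at most 2 per gene), the 10 genes with most ends, the 10 genes with at least 10 reads and the largest share at CDS ends, and members of lists of PABs, cleavage factors, photosynthesis, ribosomal proteins and histones (the last 3 by a pattern in the symbol or product name); those with few reads are given by their group. Others are named as the text says or for their long A runs or stop codons. The members and lists were chosen with earlier results of these data known.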

Additional observations from a re-analysis of the deposited data

Results flagged for a closer look

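Reads on the minus strand of transcripts were outside the rule. Of 124768 placed ones, 127 ended in CDS of a gene on the opposite strand, at 39 distinct positions, 9 of which were also ends of plus reads. This was 0.102% of placed minus reads (95% exact Clopper-Pearson interval, 0.0849 to 0.121%), beside 0.194% of placed plus reads at CDS ends. They are given because they lie outside the data described above, and no control library was there to set them against.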

How the results depend on the processing

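Of 57 alternative values for 7 results, 40 stayed and 17 moved. A count stayed when within 1.5 times the value given above, and a share or median position when within its 95% interval. With a mapping quality of at least 10 there were 659 ends, 2436 reads and 511 genes, and the median relative position was 0.860 of the CDS, against 0.755. With at least 2 read starts there were 160 ends, 3198 reads and 143 genes, the A-rich share was 15%, the share before at least 5 A 6.25% and the median position 0.941. With read sequences found once in the genome the median position was 0.790. Counting identical reads once left 1972 reads. With 8 A in a row or 9 of 10, the A-rich share was 0.734%, and at least 8 A followed 0.441%. Weighted by reads, the A-rich share was 26.1%, the AATAAA share 1.00% and the median position 0.969. Leaving out ends with a copy in an organelle genome, an alternative chosen after seeing the data, moved none of the 7 results. The causes were not tested. No paired analysis was possible because the single poly(A) sample has no partner. Ends with 1 read limit the precision of positions and gene counts.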
